A study of Mus musculus with 2 samples.

Results

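Mir21a, Mir22, Mir132 and Mir212 are 4 microRNA genes chosen by name for their known roles in growth and scarring of the heart muscle, among 2202 microRNA genes counted in the mouse heart. Their identifiers were matched to gene names in GENCODE M21, and all 4 were found. The hearts came from females of the strain B6CASTF1/J, an F1 hybrid, aged 14 days by the age field of the labels, and RNA of under 30 bases was sequenced. A free-text label writes this postnatal age with the unit months, and the age field was followed here. The study has 1 group of 2 biological replicates, with no treatment in the labels, so it compares no conditions. The labels speak of 3 females for replicate 1 and 1 female for replicate 2, without saying whether the first was a pool.

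A microRNA is cut from a hairpin precursor into a short strand that guides a silencing complex to messenger RNAs, which it finds mainly through its seed, bases 2 to 8 from the 5′ end. In rodent hearts, miR-21 is known from fibroblasts and from fibrosis after pressure overload. miR-22 is abundant in cardiomyocytes and takes part in their hypertrophy, and miR-132 with miR-212 promotes hypertrophy and holds back autophagy. Of these roles the present data test none, since the labels name no stress or disease.

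The mature sequences are shown because they tell which of the 4 genes can act on the same targets and whether their reads can be told from those of other genes. They are given as RefSeq annotates them on GRCm38.p6, 5′ to 3′, with the seed in capitals. Both arms of each hairpin are listed since the counts are per gene and do not tell the arms apart.

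mmu-miR-22-5p: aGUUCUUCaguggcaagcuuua
mmu-miR-22-3p: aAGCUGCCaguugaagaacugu
mmu-miR-21a-5p: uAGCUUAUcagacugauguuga
mmu-miR-21a-3p: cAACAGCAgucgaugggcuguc
mmu-miR-132-5p: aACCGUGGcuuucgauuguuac
mmu-miR-132-3p: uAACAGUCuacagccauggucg
mmu-miR-212-5p: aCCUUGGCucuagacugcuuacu
mmu-miR-212-3p: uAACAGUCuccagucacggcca

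The 3p arms of Mir132 and Mir212 carry the same seed, share their first 9 bases and are identical at 17 of 22 positions. Their 5p arms have different seeds and are identical at 9 of the 22 positions compared. No other mature mouse microRNA of the table carries the seed of the 3p pair. The 5p arm of Mir21a shares its seed with miR-21c alone, which is identical to it over the first 15 bases. miR-21b resembles it at 18 of 22 positions but has another seed.

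mmu-miR-21c: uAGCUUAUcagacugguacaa
mmu-miR-21b: uAGUUUAUcagacugauauuucc

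Mir21b and Mir21c had 0 reads on either strand in both libraries, a count that still allows 0.573 CPM (replicate 1) or 0.991 CPM (replicate 2), at a floor of 3 reads and for counting error only. CPM is the count scaled to 1000000 reads assigned to microRNA genes on the gene's own strand. Reads with several mapping places are in no gene's count, which can lower the counts of genes that have near-identical copies. The hairpins of the 4 genes share no stretch of 20 bases with another counted hairpin. The longest shared stretch is 15 bases, between Mir21a and Mir21c, and for the other 3 genes it is 11 or 12 bases.

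All 4 genes lie on chromosome 11 of mm10, at 3 loci. Mir212 (75173388 to 75173478, plus strand) and Mir132 (75173682 to 75173747, plus strand) stand 203 bases apart in intron 1 of the noncoding transcript 1700016P03Rik. Mir22 (75463716 to 75463810, plus strand) lies 290 kb further on. It is wholly inside exon 2 of its noncoding host Mir22hg and exon 2 of a noncoding transcript of Tlcd2. Mir21a (86584067 to 86584158, minus strand) is inside the untranslated part of the last exon, number 12, of Vmp1, which codes for an autophagy protein. Apart from Mir132 and Mir212 beside each other, none of the 4 had another microRNA gene of the tables within 10 kb. The nearest stood 529 kb from Mir21a and 87.6 kb from Mir22.

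**Figure D1:**
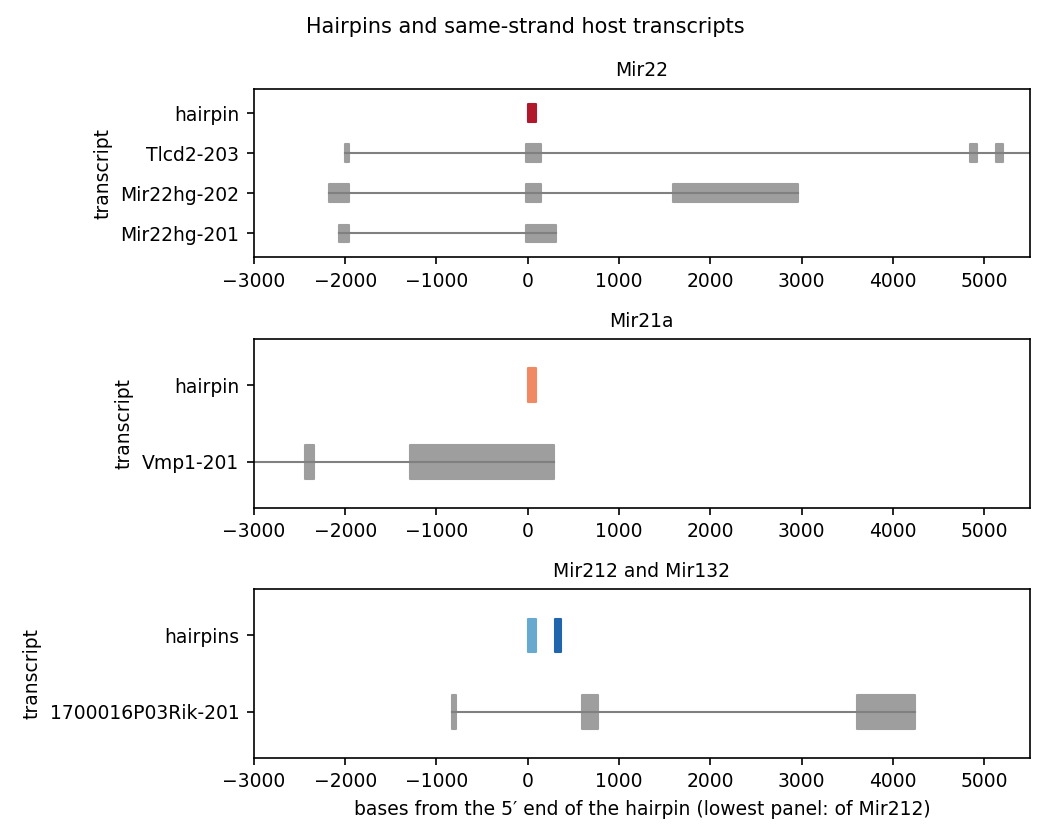
Hairpins of Mir22, Mir21a, Mir212 and Mir132 (coloured) and exons of the same-strand host transcripts (grey boxes), in bases from the 5′ end of the hairpin along the transcript. Mir22 and Mir21a fall inside exons, and Mir212 and Mir132 fall in intron 1 of 1700016P03Rik, 203 bases apart.

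Replicate 1 held 12701590 reads and replicate 2 held 7126319. The own-strand counts of microRNA genes summed to 5237062 (41.2%) in replicate 1 and 3026501 (42.5%) in replicate 2. Reads mapping to several places made up 41.1% and 39.9% of all reads. A gene was called detected where each library held 10 or more of its reads, which 335 of the 2202 genes reached, all 4 described here among them. Of the cardiomyocyte markers, those carried in introns of myosin heavy chain genes were present. Mir499 stood at 2984 ± 704 CPM, Mir208a at 998 ± 506 CPM and Mir208b at 308 ± 28.6 CPM. The other listed markers were low, with means of 27.2 CPM for Mir1a-2, 3.51 for Mir133a-1, 1.37 for Mir1a-1 and 0.834 for Mir133a-2. Their hairpins share 20 bases with another counted hairpin, and reads with several mapping places are not counted. Values with ± are the mean and SD over both libraries (n = 2), and such an SD rests on a single difference. Intervals are exact 95% Clopper-Pearson intervals and cover counting error only, since without molecular identifiers several reads can stem from 1 molecule.

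Mir22 was the most abundant of the 4, and the only one in the top 20 of all genes. It had 151165 reads (28864 CPM, interval 28721 to 29008) in replicate 1 and 18788 reads (6208 CPM, 6120 to 6297) in replicate 2. Its mean of 17536 ± 16021 CPM gave it rank 13 of 2202, with rank 10 in replicate 1 and rank 23 in replicate 2. Replicate 1 stood far above replicate 2, and the SD reached 91.4% of the mean.

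Mir21a came next. It had 25796 reads (4926 CPM, interval 4866 to 4986) in replicate 1 and 3706 reads (1225 CPM, 1185 to 1265) in replicate 2. The mean was 3075 ± 2617 CPM, at rank 40 of all genes, rank 30 in replicate 1 and rank 61 in replicate 2. Again replicate 1 was the high library, and the SD was 85.1% of the mean.

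Mir132 was of middle abundance and less spread. It had 4423 reads (845 CPM, interval 820 to 870) in replicate 1 and 1367 reads (452 CPM, 428 to 476) in replicate 2. The mean of 648 ± 278 CPM placed it at rank 85, and the SD was 42.9% of the mean. Mir212, encoded next to it, was scarce, with 84 reads (16.0 CPM, interval 12.8 to 19.9) in replicate 1 and 32 reads (10.6 CPM, 7.23 to 14.9) in replicate 2. Its mean was 13.3 ± 3.87 CPM at rank 260, and its 2 counting intervals overlapped.

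**Figure D2:**
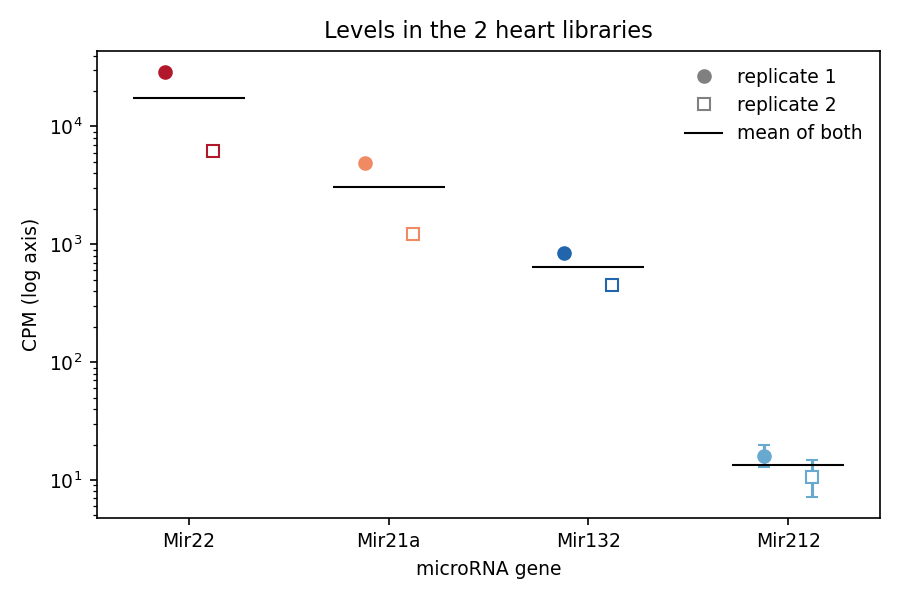
CPM of Mir22, Mir21a, Mir132 and Mir212 in replicate 1 (filled circles) and replicate 2 (open squares) on a log axis, with exact 95% counting intervals, which for all but Mir212 are smaller than the symbols; the line is the mean of both. Each gene is higher in replicate 1, and the order from Mir22 to Mir212 is the same in both libraries.

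The order Mir22, Mir21a, Mir132, Mir212 was the same in both libraries, and the ranges of neighbours in it did not overlap. It was also the same when counts were divided by hairpin length, which runs from 66 bases for Mir132 to 95 for Mir22. The smallest ratio of neighbours within a library was 2.71 (Mir21a to Mir132, replicate 2). The hairpin lengths differ by less than this factor, so dividing by them could not change the order. The gaps differed in size. The lowest value of Mir22 was 1.26 times the highest of Mir21a, and the lowest of Mir21a was 1.45 times the highest of Mir132. For both of these pairs, the difference between the means was smaller than the larger SD. The lowest value of Mir132, by contrast, was 28.2 times the highest of Mir212, and the means differed by more than the larger SD.

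Against all genes, neighbours in level were chosen by mean CPM, so an overlap with them follows largely from that choice and from the gene's own spread. The ranges of the 2 genes directly above and the 2 directly below in mean CPM overlapped the range of the gene itself in every case. For Mir22 these were Mir99a, Mir30d, Mir26b and Mir652, at 27029 to 13317 CPM. Within a library the levels could still differ, with Mir30d at 17970 CPM in replicate 1 and 17930 CPM in replicate 2, against 28864 and 6208 CPM for Mir22. For Mir21a the neighbours were Mir320, Mir674, Mir351 and the cardiomyocyte microRNA Mir499, at 3311 to 2984 CPM. For Mir132 they were Mir181c, Mirlet7a-1, Mir425 and Mir30c-2, at 758 to 636 CPM. For Mir212 they were Mir3074-1, Mir677, Mir496a and Mir106a, at 13.8 to 13.1 CPM.

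No read of the 4 genes fell on the opposite strand, and their unstranded counts equalled their own-strand counts in both libraries. Together they took 3.47% of counted reads in replicate 1 and 0.789% in replicate 2. Mir22 alone made up 83.3% of this sum in replicate 1 and 78.6% in replicate 2. Mir21a made up 14.2% and 15.5%, Mir132 made up 2.44% and 5.72%, and Mir212 stayed at 0.0463% and 0.134%.

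The libraries were compared by an exact two-sided binomial test for each gene, with TMM scaling and Benjamini-Hochberg adjustment over the 430 genes with at least 10 reads in sum. This test compares these libraries only and rests on counting error. Of the 4 genes, 3 were called higher in replicate 1, where 27.9% of all tested genes were called higher and 27.4% lower (55.3% in either direction). A log2 difference above 0 was seen in 4 of the 4 genes and in 208 of the 430 (48.4%). Relative to total counts, TMM moved every log2 difference by -0.13. With total counts 33.5% of tested genes were called higher, and the same 3 genes kept their call.

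Mir22 was higher in replicate 1 by 4.24-fold (log2 2.08, counting interval 2.06 to 2.10). Among the 226 genes averaging 100 reads or more, this was the 7th largest difference in either direction. Mir21a was higher by 3.66-fold (log2 1.87, 1.82 to 1.92) and took place 11. For both, the binomial p was too small to be written as a number, and edgeR's exact test with a biological coefficient of variation of 0.1 gave adjusted p-values of 1.1e-20 for Mir22 and 5.6e-17 for Mir21a. That test called 15.6% of all tested genes higher in replicate 1 and 13% lower.

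Mir132 was higher by 1.70-fold (log2 0.77, 0.68 to 0.86), at place 49 of the 226, with an adjusted p of 3.3e-71 by the exact binomial test and 0.0020 by edgeR's exact test at 0.1. Mir212 had a log2 difference of 0.45 with an interval of -0.14 to 1.10, which did not pass (adjusted p = 0.21 by the exact binomial test). At its 84 and 32 reads, a difference as large as that of Mir132 lay inside the interval.

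The spread between the libraries was wide for all genes. In the 226 genes averaging 100 reads or more, the log2 difference had an SD of 0.91. Its median size was 1.32-fold, and for 41 genes it exceeded 2-fold. Mir22 and Mir21a lay beyond 2 of these SDs, and Mir132 and Mir212 within 1. The common biological coefficient of variation estimated by edgeR from these libraries was 0.424. At a coefficient of 0.4, edgeR's exact test called 1.16% of tested genes and none of the 4, with adjusted p-values of 0.63 for Mir22, 0.67 for Mir21a and 1 for Mir132 and for Mir212. At an unadjusted p under 0.05 it called 27 of the 430, with p-values of 0.016 for Mir22 and 0.029 for Mir21a.

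**Figure D3:**
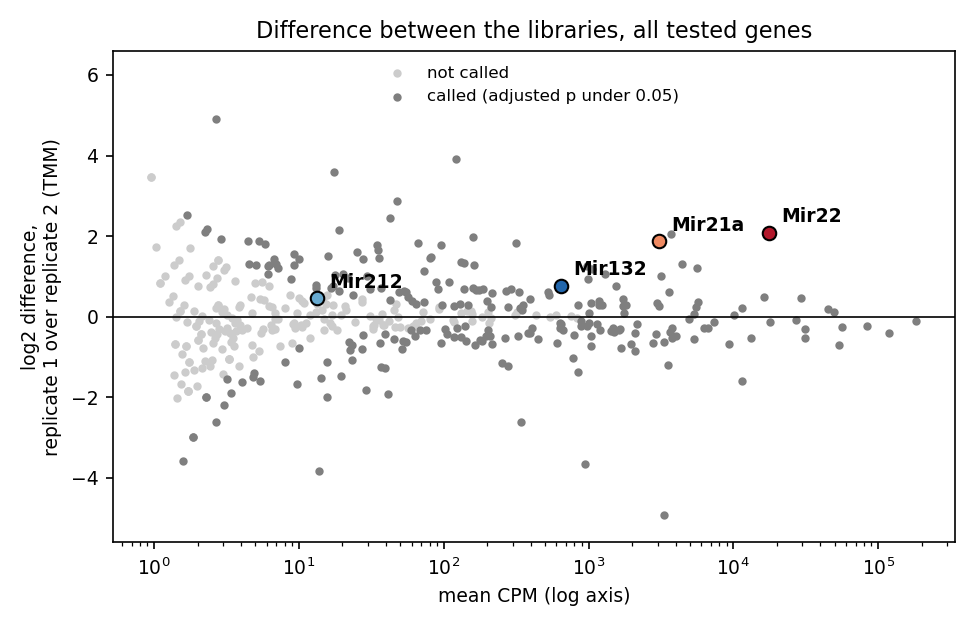
Log2 difference between the libraries (replicate 1 over replicate 2, TMM scaling) against mean CPM on a log axis, for the 430 tested genes; dark grey points passed the binomial test. Mir22 (2.08) and Mir21a (1.87) stand at the upper edge among abundant genes, with Mir132 (0.77) and Mir212 (0.45) nearer to 0.

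Ratios within a library need no scaling and show how the genes moved relative to each other. Mir21a stood to Mir22 at 0.171 in replicate 1 and 0.197 in replicate 2, a ratio that changed by 1.16-fold (log2 -0.21, counting SE 0.028). Mir132 stood to Mir212 at 52.7 in replicate 1 and 42.7 in replicate 2 (log2 0.30, counting SE 0.30). The ratios across these pairs changed more. Mir22 to Mir132 was 34.2 in replicate 1 and 13.7 in replicate 2, a change of 2.49-fold (log2 1.31, SE 0.046), and Mir21a to Mir132 was 5.83 and 2.71, a change of 2.15-fold (log2 1.11, SE 0.051).

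Over the 6 pairs, Fisher's exact test (two-sided, Benjamini-Hochberg adjusted over the pairs) called 5. The adjusted p was 5.3e-153 for Mir22 to Mir132, 1.1e-94 for Mir21a to Mir132 and 1.7e-13 for Mir21a to Mir22. The ratios to Mir212 were also called, for Mir22 (1800 and 587, log2 1.62, adjusted p = 1.1e-06) and for Mir21a (307 and 116, log2 1.41, adjusted p = 1.8e-05). Mir132 to Mir212 was not called (adjusted p = 0.32), and its SE allows a change of the size seen for Mir21a to Mir22. These p-values cover counting error only; for 2 unrelated genes, the SD of 0.91 for single genes corresponds to an SD of 1.28 for the log2 change of a ratio. The changes of Mir21a to Mir22, Mir132 to Mir212 and Mir21a to Mir132 were smaller than this, and the other 3 were between 1.31 and 1.62.

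**Figure D4:**
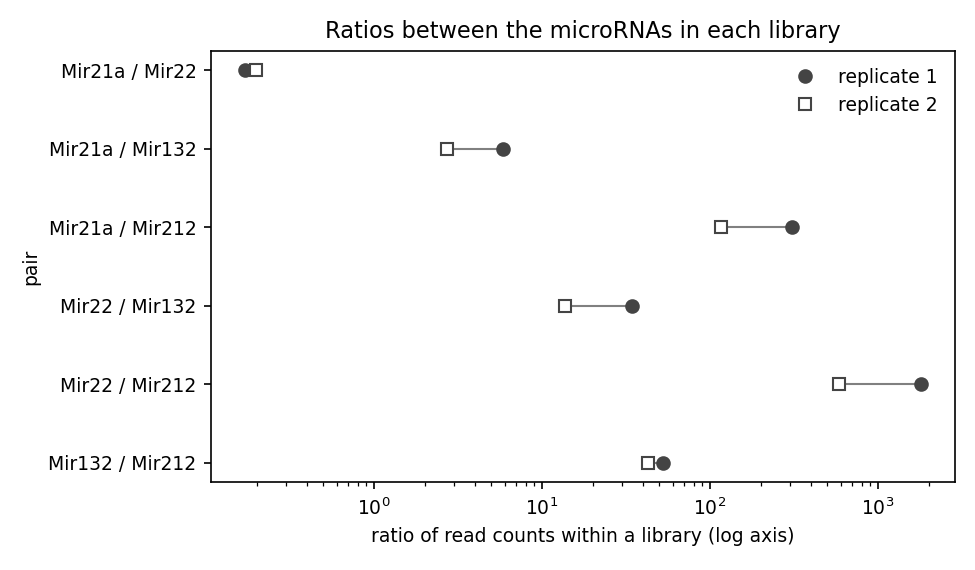
Ratio of read counts for each of the 6 pairs of the 4 genes in replicate 1 (filled circles) and replicate 2 (open squares), on a log axis. The ratios of Mir21a to Mir22 and of Mir132 to Mir212 change least, by 1.16-fold and 1.23-fold.

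With 2 libraries, the pattern of a gene is its log2 difference, and the genes nearest to each of the 4 were taken among those averaging 100 reads or more. Nearest to Mir22 were Mir140 (2.04), Mir449a (1.98) and the myeloid microRNA Mir223 (1.83), where the values are log2 differences. Nearest to Mir21a were Mir223 (1.83), Mir487b (1.82) and Mir181a-2 (1.79). Nearest to Mir132 were Mir423 (0.75), Mir1983 (0.72) and Mir219a-2 (0.72), and nearest to Mir212 were Mir139 (0.46), Mir214 (0.45) and Mir370 (0.44). A likeness over 2 libraries says only that the log2 differences were of like size. For Mir212, which was not called, the counting interval of -0.14 to 1.10 is wider than the gaps to its nearest genes. Other genes could as well be nearest to it.

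Markers of several cell types also differed between the libraries, and their part in the differences of the 4 genes was not tested. In bulk tissue, fewer cells of a type and less RNA per cell cannot be told apart. A list's share follows its most abundant members, and the others need not move with it. The erythroid list (3 of 3 annotated genes detected) took 0.0995% of counted reads in replicate 1 and 0.738% in replicate 2, with Mir451a and Mir144 called lower in replicate 1 and Mir486 called higher (log2 0.55). The epithelial list (7 of 10 detected) took 0.0734% and 0.0446%. Of its 9 tested genes, 7 were called higher in replicate 1 and 1 lower (median log2 1.13, against -0.05 over all tested genes). The pancreas list (1 of 4 detected, Mir216a at 0) took 0.00764% and 0.00135%. The cardiomyocyte list (5 of 7 detected) took 0.519% and 0.345%, and the fibroblast list (7 of 8 detected, Mir199a-1 at 0) 0.315% and 0.225%. Their members were divided, with 2 called higher and 1 lower of 6 tested cardiomyocyte genes (median log2 -0.23) and 2 higher and 3 lower of 7 tested fibroblast genes (median -0.32; 3 higher and 2 lower with total counts). The leukocyte list (5 of 6 detected, Mir142b at 0) took 0.385% and 0.415%, although 4 of its 5 tested genes were called higher in replicate 1 (median 0.30) and Mir155 alone lower (-0.85). The smooth muscle list (2 of 3, Mir145b at 0) took 3.03% and 3.39%, and the endothelial list (1 of 2) 4.29% and 6.40%. The neuronal list (3 of 9, with 5 at 0) took 0.0344% and 0.0181%, and the liver microRNA Mir122 took 0.00559% and 0.00704%. Of these lists, the pancreas list alone had a share that differed by as much as that of Mir22 in the same direction. That share was mostly Mir375 (381 and 36 reads). Single markers also differed by more than Mir22 (log2 2.08) in that direction, namely Mir205 (3.60), Mir200b (2.88) and Mir375 (2.46). In the other direction, Mir451a (-4.91) and Mir144 (-2.62) did. Whether any of them bear on the 4 genes was not tested.

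Other microRNAs with a known part in hypertrophy or fibrosis did not share one direction. The lists give roles known from rodent hearts. They share genes, such as Mir155 and Mir208a in both promoting lists and Mir26a-2 in both restraining lists. They also hold copies of the same microRNA, such as Mir24-1 and Mir24-2, so their counts and medians are not over independent genes. Of 11 tested genes of the hypertrophy promoting list, 6 were called higher in replicate 1, 3 lower and 2 were not called, and the median log2 difference was 0.35. The 12 tested hypertrophy restraining genes split into 5 higher, 3 lower and 4 without a call (median -0.14). Of 6 fibrosis promoting genes, 4 were higher and 2 lower (median 0.17), and of 14 fibrosis restraining genes, 8 were higher, 4 lower and 2 not called (median 0.50). Over all 430 tested genes the median was -0.05, with 27.9% called higher and 27.4% lower. With total counts, the hypertrophy restraining list had 6 higher and 1 lower, and the median of all genes was 0.08.

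In 3 of the lists the 3 highest genes stood on both sides of the mean CPM of Mir21a, and in the fibrosis restraining list all 3 stood below it. Mir21a itself stood at 4926 CPM in replicate 1 and 1225 CPM in replicate 2. The means of Mir27b, Mir499, Mir98, Mir34a, Mir155 and Mir214 lie between these values, so their side is not told beyond the spread. In the hypertrophy promoting list, Mir23a stood at 31142 ± 6021 CPM and was lower in replicate 1 (log2 -0.53). Mir27b stood at 4411 ± 2896 CPM and was higher (1.32), and Mir499 was higher too (0.35). In the hypertrophy restraining list, Mir378a stood at 184074 ± 2148 CPM (-0.11, but 0.02 with total counts), Mir26b at 16184 ± 4916 CPM (0.50) and Mir98 at 2170 ± 41.0 CPM (-0.17). All 3 were called with TMM, and with total counts Mir98 was not.

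In the fibrosis promoting list, Mir34a stood at 3770 ± 738 CPM and was lower in replicate 1 (log2 -0.54). Mir155 at 2105 ± 727 CPM was lower too (-0.85), and Mir328 at 1006 ± 117 CPM was higher (0.10). In the fibrosis restraining list, Mir214 stood at 1736 ± 487 CPM (0.45) and Mir29a, which targets collagen messages, at 852 ± 181 CPM (0.30), both higher, and Mir30c-2 at 636 ± 45.0 CPM was lower (-0.28). Of these lists, 7 of 12, 11 of 15, 0 of 6 and 15 of 17 annotated genes share 20 bases with another hairpin, so many of their levels are uncertain. Mir21a, Mir22, Mir132 and Mir212 share no such stretch with another counted hairpin. Their levels still carry the spread between the libraries, and for Mir212 a low count.

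**Figure D5:**
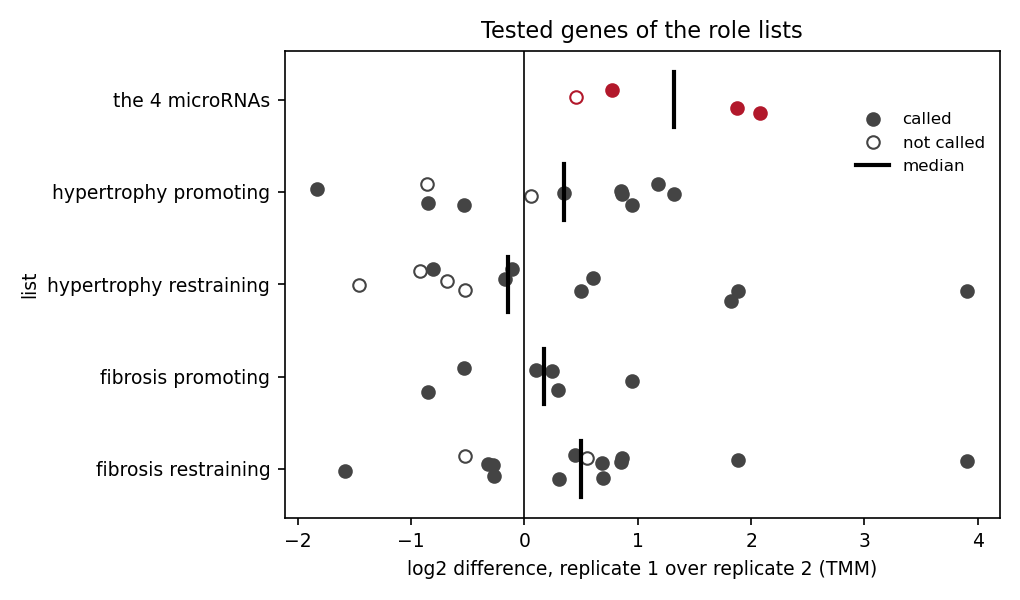
Log2 difference between the libraries (replicate 1 over replicate 2) for the 4 microRNAs and for the tested genes of the 4 role lists; filled points passed the binomial test and bars are medians. The 4 microRNAs all lie above 0, Mir212 without a call. Each role list has genes on both sides, as have all 430 tested genes, of which 208 lie above 0.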

How the data were processed

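The deposited tables hold whole-number read counts per microRNA gene for each library, not normalized. Per the readme deposited with them, they were made against mm10 with GENCODE M21; no aligner or counter is named there or in the labels. The values show that the 3 columns hold unstranded, own-strand and opposite-strand counts, and the own-strand column was used. The 4 summary lines, which name no gene, stayed out of library sizes; their shares were 13.4% and 13.3% unmapped, 41.1% and 39.9% mapped to several places, and 4.33% and 4.30% outside genes. All 2202 identifiers matched GENCODE M21.

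TMM factors (edgeR 4.0.16, R 4.3.3) came from the genes with at least 10 reads in sum. Log2 differences had 0.5 reads added, and the adjusted p threshold was 0.05. The binomial test doubled the smaller tail and was tested on simulated data. The simulated counts held counting error only and were scaled by total counts, so they cannot show how the test behaves under variation between animals. Python 3.11.15 with scipy 1.17.1 did the rest. DESeq2 1.42.0 size factors, total counts, other minimums, unstranded counts and other denominators were alternatives. The members and lists were chosen with earlier results of these data known. Named were the 4 genes, their neighbours in level and in difference, genes sharing a seed, 20 bases or a locus, the 3 highest genes of each role list and cell type markers. Mir18a and Mir486b, also listed, did not match a gene name of the tables.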

Additional observations from a re-analysis of the deposited data

How the results depend on the processing

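Mir22, Mir21a and Mir132 stayed called as higher in replicate 1, and Mir212 stayed without a call, under several other settings. These were DESeq2 size factors, total counts, no filter, at least 100 reads in sum, unstranded counts and a required fold of 1.5. The exact test of edgeR with an assumed biological coefficient of variation (BCV) of 0.1 gave the same calls. Adding 10 reads in place of 0.5 enters the log2 difference alone and could not change a call. For Mir212 it gave a log2 difference of 0.24 in place of 0.45. At a BCV of 0.4, the calls of Mir22 (log2 2.08), Mir21a (1.87) and Mir132 (0.77) were lost, and the genes called fell to 5, against 123 at 0.1, 138 with a required fold of 1.5 and 238 in the test as reported; both the wider assumed spread and the fold minimum can only remove calls. With total counts 60.0% of the 240 calls were higher in replicate 1, against 50.4% of 238 with TMM. Per 1000000 reads outside the 10 highest genes, Mir22 stood at 53620, Mir21a at 9424, Mir132 at 2017 and Mir212 at 41.6. Per 1000000 of all reads, Mir22 stood at 7269, Mir21a at 1275, Mir132 at 270 and Mir212 at 5.55. With unstranded counts, Mir22 stood at 23779 CPM, Mir21a at 4172, Mir132 at 883 and Mir212 at 18.2. These follow from the denominators. The 6 ratios could not change with unstranded counts, since these equalled the own-strand counts for the 4 genes. No list's count of calls, taken over both directions, moved by more than 1.5 times with total counts. Such a count does not show the split by direction. The hypertrophy restraining list went from 5 higher and 3 lower to 6 higher and 1 lower. Its Mir378a was called lower with TMM (log2 -0.11) and higher with total counts (0.02). Leaving out 1 replicate leaves the other's level, 6208 to 28864 CPM for Mir22 and 1225 to 4926 CPM for Mir21a. The 84 and 32 reads of Mir212 limit what could be seen for it. No paired analysis was possible because there was 1 group.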
